A study of Mus musculus with 4 samples.

Results

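Bone marrow of the 5TMM mouse model held a small population of neutrophil-like cells with transcripts of both Il1b, the gene of the cytokine IL-1β, and Ptgs2, the gene of cyclooxygenase-2. In this model, 5TGM1 myeloma cells that carry luciferase had been injected into the vein of C57BL/KawRij mice aged 6 weeks, and the tumor had grown for 3 weeks. Then 2 mice received vehicle and 2 received Purinostat Mesylate (PM), an inhibitor of class I and IIb histone deacetylases, at 10 mg/kg for 24 h. All 4 mice carried myeloma, so there was no tumor-free group, and every value below describes marrow of diseased animals. Red cells were lysed and whole marrow was profiled by droplet single-cell RNA-seq, with 1 library for each mouse. The files held 9516 and 8242 cell barcodes for vehicle mice 1 and 2 and 13848 and 9787 for PM mice 1 and 2, with 86052982, 69828595, 109447030 and 74388936 unique molecular identifiers (UMIs, each standing for 1 captured transcript). Between 18 and 39 barcodes were shared by any pair of libraries.

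The population was chosen by raw UMI limits, not by clustering. Cells needed 300 or more genes and no more than 20% mitochondrial UMIs to be kept. Of these, gated cells had at least 5 UMIs of Il1b, at least 1 of Ptgs2 and at least 1 of Csf3r, the receptor of granulocyte colony-stimulating factor. They also had at most 2 UMIs of Ltf (lactoferrin of secondary granules), none of Csf1r (the receptor of macrophage colony-stimulating factor, a monocyte gene) and at most 1 of the interferon-induced genes Ifit1 and Ifit3 together. In all 4 libraries 818 of 39743 cells passed, made up of 176 and 257 cells in vehicle mice 1 and 2 and 132 and 253 cells in PM mice 1 and 2. The comparator was the 23545 cells with Csf3r and no Ptgs2 UMI (6550, 4324, 7406 and 5265 in the same order). It had no limit on Csf1r and was not made up of mature neutrophils alone, since 16.9%, 16.4%, 19.9% and 12.7% of its cells had a UMI of the monocyte gene Ccr2 and 26.6%, 26.7%, 31.0% and 26.7% one of the cycling gene Mki67. Because the limits chose the cells, the levels of these 7 genes in gated cells are a description and carry no test.

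Neutrophils are the most abundant leukocytes of bone marrow. They form primary granules with myeloperoxidase and elastase first, secondary granules with lactoferrin and cathelicidin next, and late in maturation take on Cxcr2, the receptor through which they leave the marrow. When pattern recognition receptors are engaged, NF-kB turns on Il1b, Ptgs2 and chemokines such as Cxcl2. Pro-IL-1β is then cut by the inflammasome and released, and cyclooxygenase-2 makes the precursor of prostaglandin E2. Ccrl2 encodes a receptor that binds chemerin without signalling and is induced in activated neutrophils. CXCL2 draws further neutrophils through CXCR2.

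The 5 genes that mark these cells lie on separate chromosomes. In mouse build GRCm38 (GENCODE annotation), Il1b lies at chr2:129364570-129371139 on the minus strand, Ptgs2 at chr1:150100031-150108227, Csf3r at chr4:126024550-126044440, Cxcl2 at chr5:90903871-90905938, all on the plus strand, and Ccrl2 at chr9:111054486-111057519 on the minus strand. The 250 bases before the RefSeq start site (GRCm38.p6) of the 5 marker genes are printed 5′ to 3′ on the strand of each gene, since these are the promoters of the genes by which the population is described. They cover chr2:129371140-129371389 for Il1b, chr1:150099781-150100030 for Ptgs2, chr4:126024409-126024658 for Csf3r, chr5:90903649-90903898 for Cxcl2 and chr9:111057519-111057768 for Ccrl2, the outermost of its 3 annotated start sites. Capitals mark matches, on either strand, to GGGANNNNCC, a core form of the NF-kB motif, and to TATAAA, the TATA box.
Il1b: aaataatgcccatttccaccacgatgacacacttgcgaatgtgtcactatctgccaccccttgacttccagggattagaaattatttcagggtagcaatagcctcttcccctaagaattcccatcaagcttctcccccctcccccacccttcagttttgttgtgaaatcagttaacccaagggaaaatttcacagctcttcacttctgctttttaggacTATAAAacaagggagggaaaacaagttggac
Ptgs2: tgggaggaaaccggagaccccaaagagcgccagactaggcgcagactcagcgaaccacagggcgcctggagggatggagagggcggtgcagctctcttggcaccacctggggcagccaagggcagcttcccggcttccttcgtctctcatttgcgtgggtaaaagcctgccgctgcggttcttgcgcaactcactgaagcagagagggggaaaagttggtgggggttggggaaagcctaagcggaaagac
Csf3r: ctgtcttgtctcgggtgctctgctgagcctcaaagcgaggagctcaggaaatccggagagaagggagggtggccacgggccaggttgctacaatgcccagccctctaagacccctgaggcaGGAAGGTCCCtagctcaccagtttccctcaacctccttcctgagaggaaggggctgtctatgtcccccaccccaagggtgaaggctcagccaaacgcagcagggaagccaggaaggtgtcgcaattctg
Cxcl2: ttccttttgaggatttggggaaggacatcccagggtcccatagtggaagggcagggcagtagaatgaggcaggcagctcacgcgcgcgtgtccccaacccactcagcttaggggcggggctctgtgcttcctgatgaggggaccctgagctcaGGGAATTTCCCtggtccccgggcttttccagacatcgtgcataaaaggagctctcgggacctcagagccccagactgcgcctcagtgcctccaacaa
Ccrl2: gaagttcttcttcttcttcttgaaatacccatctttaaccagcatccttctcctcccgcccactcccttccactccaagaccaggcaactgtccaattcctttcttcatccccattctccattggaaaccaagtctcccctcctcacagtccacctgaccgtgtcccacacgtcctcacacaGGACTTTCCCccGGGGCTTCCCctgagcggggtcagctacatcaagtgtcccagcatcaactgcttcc

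A TATA box began 31 bases before the Il1b start. The Cxcl2 window held overlapping matches to GGGANNNNCC on both strands, which began 97 and 96 bases before the start, and the Ccrl2 window held matches on the opposite strand at 68 and 56 bases. The Csf3r window held 1, on the opposite strand at 129 bases. No match to either pattern was found in the Ptgs2 window. Of 32851 RefSeq promoter windows of this length, 17.6% held GGGANNNNCC and 12.4% held TATAAA, so a match is common and is given as a description only.

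The gated cells were small by UMI count and carried transcripts of mature neutrophils, with Ly6g as an exception in the vehicle mice. Their median was 2628.5 and 2238 UMIs in vehicle mice 1 and 2 and 1663 and 2246 UMIs in PM mice 1 and 2, against 6562.5, 6526, 5511.5 and 5612 UMIs in Ptgs2-negative cells. Median mitochondrial shares lay between 0.412% and 0.583%. Genes that the gate did not use identified the lineage. Values below are UMIs of a gene per 1000000 UMIs (CPM) in the summed counts of each mouse, in the order vehicle 1, vehicle 2, PM 1, PM 2. S100a9, a calprotectin subunit of neutrophils, was at 95982, 73841, 102084 and 119711 CPM. Cxcr2 was at 2282, 2199, 2063 and 2408 CPM, with groups that overlapped, and at 538, 394, 325 and 421 CPM in Ptgs2-negative cells. Cells were thinned to 1000 UMIs to make depth equal, which left out shallower cells and kept 171 of 176, 252 of 257, 122 of 132 and 250 of 253 gated cells. Of these 89.5%, 87.3%, 91.8% and 89.2% had a Cxcr2 UMI, against 50.3%, 44.8%, 41.1% and 44.9% of Ptgs2-negative cells. In B-like cells (at least 2 UMIs of Cd79a and 1 of Cd79b, without Csf3r), which should lack the transcript, the shares were 0.427%, 0.894%, 1.99% and 1.06%, which gives the level of free RNA in the droplets. At this depth S100a8, S100a9, Retnlg and Mmp9 were likewise seen in more gated than Ptgs2-negative cells of both vehicle mice. Ly6g, a further neutrophil marker, went the other way there. It was seen in 14.6% and 9.13% of gated cells of vehicle mice 1 and 2, against 36.0% and 30.1% of Ptgs2-negative cells.

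Transcripts of other lineages were low, but not all at 0. The 9 monocyte markers summed to 519, 295, 981 and 990 CPM in gated cells and to 2970, 2909, 3588 and 3099 CPM in Ptgs2-negative cells. Their most abundant gene was Ly6c2, which maturing neutrophils also carry. Csf1r was at 0 through the gate and 1 further monocyte marker was at 0. Of 9 eosinophil markers 4 were at 0, among them Epx (eosinophil peroxidase), and their sum was 30.6, 31.5, 49.4 and 30.0 CPM, against 42.1, 59.3, 106 and 139 CPM in Ptgs2-negative cells. The 8 macrophage markers summed to 40.2, 55.5, 75.7 and 130 CPM, against 69.2, 77.6, 127 and 129 CPM. The 10 T and NK cell markers summed to 32.5, 111, 88.8 and 10.5 CPM in gated cells and to 12.5, 13.5, 31.5 and 24.6 CPM in Ptgs2-negative cells, so they were higher in gated cells in 3 of 4 mice. Immunoglobulin Igkc led the B cell list at 163, 376, 530 and 216 CPM and was higher in Ptgs2-negative cells (976, 1024, 1915 and 2287 CPM).

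The limits cut through continuous distributions. Of cells that met every other limit, 57 had exactly 5 Il1b UMIs and 63 had 4, just outside. Ptgs2 was the limit that removed the most cells, since 2165 cells met all others and had none, while 260 of the 818 had a single Ptgs2 UMI. The Csf1r limit removed 142 cells, 110 of them with 1 UMI, the Ifit limit 58, the Ltf limit 48 and the Csf3r limit 10.

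Within the population, Il1b and Ptgs2 spread over more than a decade of UMIs. The median cell had 16, 16, 8 and 12 Il1b UMIs in vehicle 1, vehicle 2, PM 1 and PM 2, and the highest cell had 67, 94, 22 and 54. For Ptgs2 the medians were 2, 3, 2 and 3 UMIs and the highest cells had 25, 29, 15 and 31. PM mouse 1 had the lowest Il1b median and, for both genes, the lowest highest cell. It shared the lowest Ptgs2 median with vehicle mouse 1 and also had the lowest depth per cell. Grouped by Ptgs2 UMIs (1, 2 to 3, 4 to 7, 8 or more; 260, 248, 191 and 119 cells), Il1b averaged 5382 ± 957, 5420 ± 1147, 5311 ± 2120 and 7549 ± 2822 CPM (SD over 4 mice). Cxcl2 averaged 1414 ± 715, 1630 ± 818, 1479 ± 701 and 2395 ± 837 CPM in the same groups. The first 3 groups differed by less than their SD for both genes. The top group held only 6 cells of PM mouse 1, and the spread between mice is part of each SD. Within a mouse, Il1b in the top group was above the group with 1 Ptgs2 UMI in 4 of 4 mice and Cxcl2 in 3 of 4, which is given as a description since both Il1b and Ptgs2 chose the cells.

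Beside the comparator, the levels of the marker genes were higher in gated cells. The gate set Il1b and Ptgs2 apart, whereas a Csf3r UMI was asked of both populations. Il1b was at 6126, 7169, 3886 and 5278 CPM in gated cells and at 203, 261, 120 and 239 CPM in Ptgs2-negative cells. Csf3r was at 2789, 2948, 2191 and 2404 CPM, against 394, 357, 284 and 343 CPM (log2 ratio 2.90). Ptgs2 was at 1294, 1659, 1283 and 1719 CPM. Cxcl2, which was not in the gate, was at 2345, 1943, 763 and 1384 CPM and at 198, 128, 32.0 and 124 CPM in the comparator. Both vehicle mice were above both PM mice in gated cells. Ccrl2 was at 184, 195, 55.9 and 94.4 CPM, against 9.18, 7.92, 3.13 and 7.06 CPM. The log2 ratio within a mouse averaged 3.87 ± 0.48 for Cxcl2 and 4.00 ± 0.40 for Ccrl2 (SD, n = 4 mice). Thinning to 2000 UMIs after gating left out shallower cells and kept 126 of 176, 158 of 257, 47 of 132 and 167 of 253 gated cells, so that PM mouse 1 kept the fewest. In the cells kept, the ratios were 2.70 for Cxcl2, 2.23 for Ccrl2 and 1.99 for Csf3r. At 1000 UMIs a cell, Cxcl2 was seen in 62.0%, 48.0%, 35.2% and 38.8% of gated cells, in 18.9%, 15.5%, 5.59% and 13.3% of Ptgs2-negative cells and in 0.427%, 0.670%, 0.238% and 0.905% of B-like cells.

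**Figure D1:**
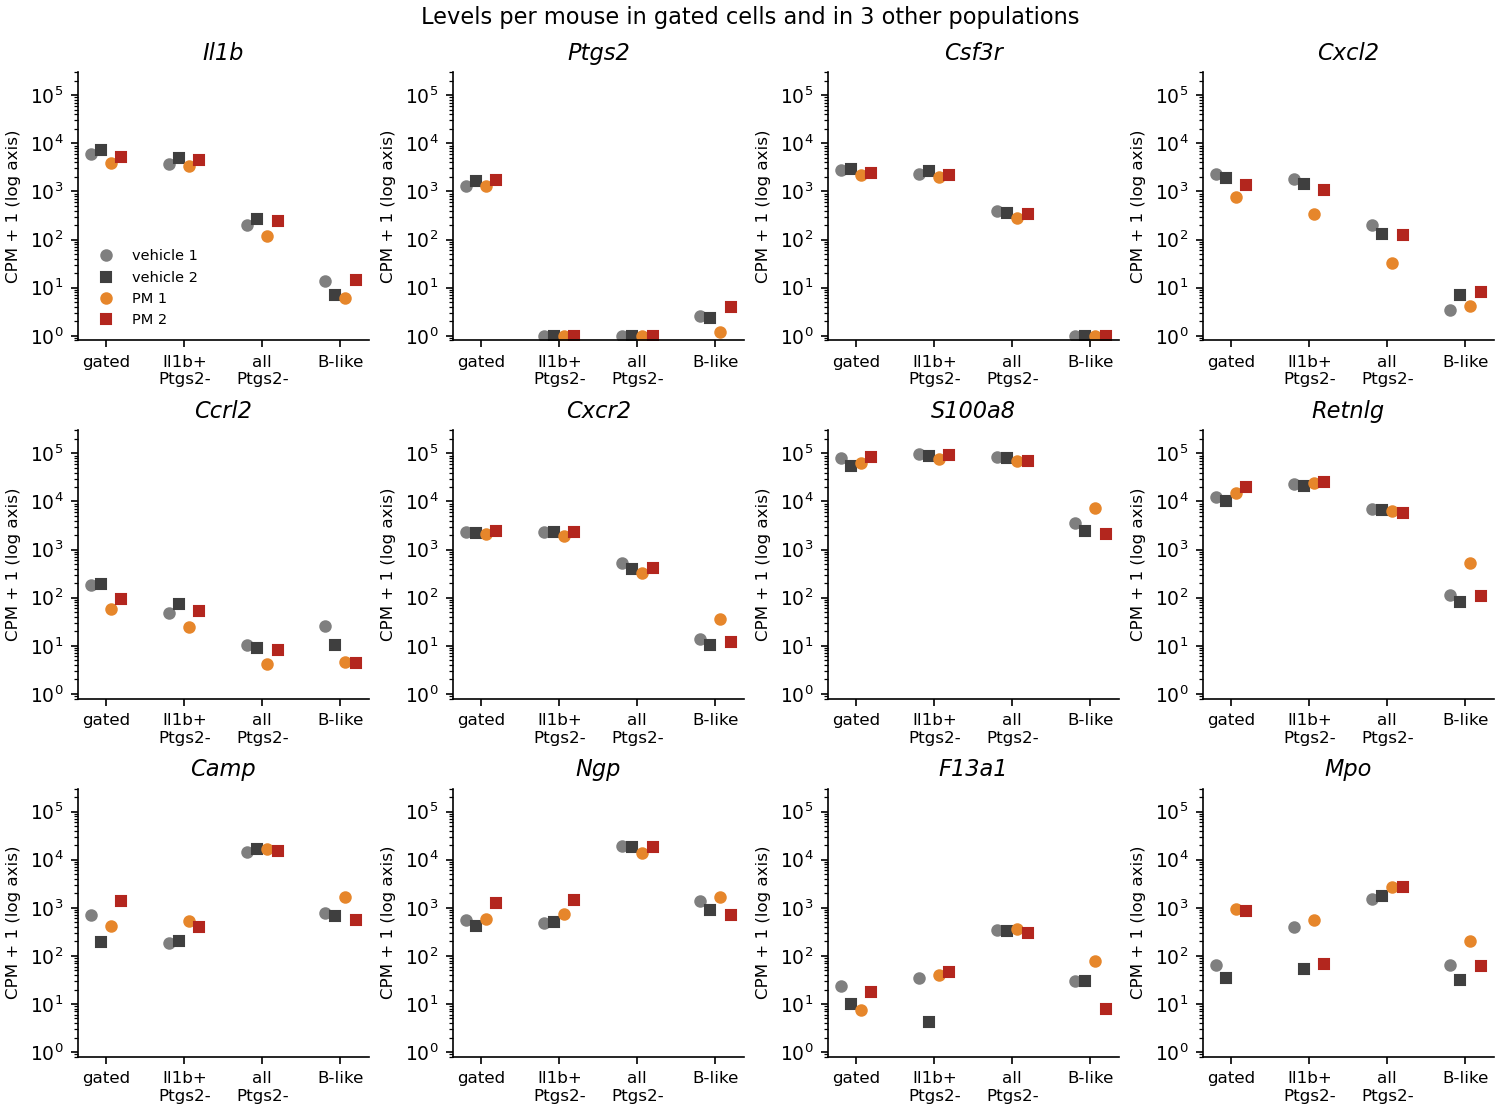
Levels of 12 genes in CPM + 1 on a log axis, with 1 point for each of the 4 mice, in gated cells, in Il1b-positive Ptgs2-negative cells, in all Ptgs2-negative Csf3r-positive cells and in B-like cells. Gated cells and Il1b-positive Ptgs2-negative cells lie close together for most genes (Cxcr2 2282 and 2288 CPM in vehicle mouse 1), whereas all Ptgs2-negative cells are lower in Cxcl2 and Cxcr2 and higher in Camp.

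Each ratio to the comparator is followed here by its value in the cells that reached 2000 UMIs, thinned to that number, which lowered the high ratios. Genes with a high ratio were Igfbp6, an IGF-binding protein (4.26 ± 0.52 on the log2 scale, thinned 3.16), Hcar2, the niacin and ketone body receptor (4.03 ± 0.32, thinned 2.66), Prr5l (3.85 ± 0.20, thinned 2.85), Steap4, a metalloreductase induced by inflammation (3.80 ± 0.20, thinned 2.64), Socs3, the feedback inhibitor of cytokine receptors (3.67 ± 0.29, thinned 2.65), Acod1, which makes itaconate (3.56 ± 0.25, thinned 2.37), and St3gal6 (3.49 ± 0.28, thinned 2.57). H2-Q10, a class I gene, was at 3.68 ± 0.15 (thinned 2.49), but near-identical class I genes can share its reads and its value is uncertain. The lowest ratios were those of secondary granule genes, Ltf (-5.63 ± 0.66, thinned -5.84, limited by the gate), Camp (-4.88 ± 1.26, thinned -5.60) and Ngp (-4.74 ± 0.68, thinned -5.07), and of genes of monocytes and precursors, F13a1 (-4.63 ± 0.81, thinned -5.16), Ms4a6c (-4.62 ± 1.56, thinned -4.10), Fn1 (-4.35 ± 1.32, thinned -4.25), S100a4 (-4.27 ± 1.08, thinned -3.97) and Lgals1 (-4.13 ± 0.60, thinned -4.96). Camp stood at 722, 192, 421 and 1356 CPM in gated cells and at 14370, 16528, 16360 and 15383 CPM in the comparator. A single cell held 75.3% of the 377 Camp UMIs of vehicle mouse 1 and 62.9% of the 905 of PM mouse 2, and without cells over 20000 UMIs Camp was at 195, 199, 506 and 311 CPM in gated cells. At 1000 UMIs, 18.7%, 18.3%, 45.9% and 27.2% of gated cells and 19.7%, 18.3%, 34.1% and 18.9% of B-like cells had a Camp UMI. In the vehicle mice Camp was thus seen about as often in gated as in B-like cells, and the part of free RNA was not tested.

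Counted by function, 25.9% of the 6377 genes at or above 20 CPM in either population were higher in gated cells in 4 of 4 mice and 49.2% were lower, a contrast on which the cells were chosen and from which nothing is read. In the lists of genes, 33 of 38 surface receptors were higher in all 4 mice, 24 of 28 immediate early and handling stress genes, 13 of 19 NF-kB and feedback genes, 11 of 15 IL-1 and inflammasome genes, 18 of 25 late maturation genes, 29 of 46 interferon-stimulated genes and 7 of 14 chemokines and cytokines. All 15 cycling genes, all 8 primary granule genes and 11 of 13 secondary granule genes were lower in all 4 mice. Of the 10 prostaglandin and leukotriene genes 4 were higher and 6 lower. Immediate early genes also respond to the handling of tissue. Dusp1, a phosphatase that dampens MAP kinases, was at 5088, 4993, 2135 and 3760 CPM in gated cells and averaged 436 ± 153 CPM (SD, n = 4) in the comparator, and Junb, a subunit of AP-1, at 3191, 3597, 2333 and 3655 CPM against 439, 403, 244 and 462 CPM. The part of handling in these levels was not tested.

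Most of this contrast was shared by cells with Il1b but without a Ptgs2 UMI. These 605, 549, 433 and 578 cells passed the Il1b, Csf3r, Ltf, Csf1r and Ifit limits. Of 1537 genes at or above 100 CPM in either population, 1 gene, Ptgs2 itself, was at least 2-fold higher in gated cells in all 4 mice and 0 were at least 2-fold lower. Against all Ptgs2-negative cells, 375 of 1956 genes were at least 2-fold higher in all 4 mice and 267 lower. Against Ptgs2-negative cells that passed the Csf3r, Ltf, Csf1r and Ifit limits, whatever their Il1b, the balance turned, with 209 of 1963 higher and 345 lower. Cxcr2 had a log2 ratio of 0.02 ± 0.07 (SD, n = 4) and Steap4 of -0.01 ± 0.33, both within their spread over mice. Ccrl2 was 1.36 ± 0.43 higher on the log2 scale, Pmaip1, which encodes the proapoptotic protein NOXA, 1.31 ± 0.70, Cxcl2 0.61 ± 0.40, Hcar2 0.60 ± 0.39, Nfkbia 0.57 ± 0.31 and Socs3 0.43 ± 0.21, each higher in 4 of 4 mice. Retnlg, a resistin-like gene of mature neutrophils, was lower by -0.74 ± 0.30 and Ly6g by -0.64 ± 0.43, each in 4 of 4 mice. With a median of only 2 to 3 Ptgs2 UMIs in gated cells, a missing UMI does not show that a cell lacked Ptgs2.

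The share of these cells was compared between vehicle and PM over mice. They made up 1.90% and 3.28% of kept cells in vehicle mice 1 and 2 and 0.986% and 2.73% in PM mice 1 and 2 (95% exact binomial intervals 1.63 to 2.20, 2.90 to 3.70, 0.826 to 1.17 and 2.41 to 3.08, which cover counting error only). The means were 2.59% ± 0.978 with vehicle and 1.86% ± 1.23 with PM (SD, n = 2), and the groups overlapped, with the PM mouse higher in 1 of 4 pairs (exact two-sided permutation test, p = 0.667, where the smallest p that 2 mice against 2 can give is 0.33). Of Csf3r-positive cells they made up 2.51% and 5.34% with vehicle and 1.69% and 4.31% with PM, and these groups overlapped too (p = 0.667, exact permutation test). The spread within each treatment was as wide as the difference between them. Mouse 2 had the higher share in each group, and at each replicate number the PM share was below the vehicle share. Whether mice of the same number shared an experiment is not known, so the test did not pair them.

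**Figure D2:**
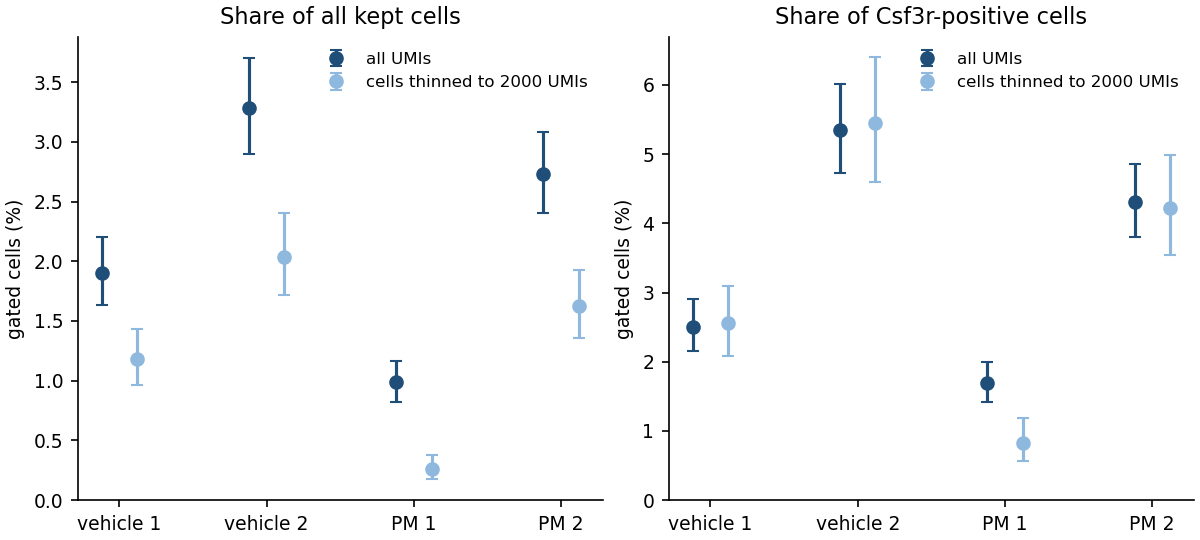
Share of gated cells in percent of all kept cells and of Csf3r-positive cells in each mouse, with all UMIs and with cells of 2000 or more UMIs thinned to that number (shallower cells left out of both counts), with exact binomial 95% intervals. In each panel the vehicle and PM mice overlap, and PM mouse 1 is lowest (0.986% of kept cells).

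Since the gate needs UMIs of Il1b and Ptgs2, both genes were tested for PM in all Csf3r-positive cells. Il1b was at 265 and 385 CPM with vehicle and at 143 and 324 CPM with PM (log2 fold change -0.61, SE 0.40, adjusted p = 0.459, edgeR quasi-likelihood test with Benjamini-Hochberg adjustment). Ptgs2 was at 22.0 and 36.6 CPM with vehicle and at 16.5 and 45.4 CPM with PM (log2 fold change -0.05, SE 0.55, adjusted p = 0.966, edgeR). For both genes the mice of the groups overlapped, and PM mouse 1 was lowest in each. With 1 mouse left out, the log2 fold change of Il1b lay between -1.30 (without PM mouse 2) and -0.16 (without PM mouse 1).

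Within gated cells, the chemokine genes Ccl9 and Ccl3 and the small membrane protein gene Fxyd7 were higher with PM, and 3 genes of surface receptors were lower. Of 5372 genes tested, 11 rose (0.205%) and 3 fell (0.0558%) at an adjusted p under 0.05 and an absolute log2 fold change over 0.5 (edgeR). At an unadjusted p under 0.05, 309 were higher and 261 lower. Ccl9, a ligand of CCR1, was at 19.1 and 22.5 CPM with vehicle and at 214 and 258 CPM with PM (log2 fold change 3.62, SE 0.30, adjusted p = 0.000808, edgeR). A Ccl9 UMI was in 2.3% and 3.9% of vehicle cells and in 18.2% and 22.9% of PM cells. Ccl3, a CC chemokine, was at 113 and 85.4 CPM with vehicle and at 345 and 403 CPM with PM (2.04, SE 0.30, adjusted p = 0.0403, edgeR). For both chemokines the PM mice lay well apart from the vehicle mice. Ccl9 passed with any 1 mouse left out, and Ccl3 passed except without vehicle mouse 2 (1.77, adjusted p = 0.0888, edgeR). Over all 18 alternatives Ccl9 passed in each and Ccl3 fell short in 5 (adjusted p up to 0.2405, log2 fold change 1.51 to 2.32). Among these 5 was the fit with at least 10 Il1b UMIs, in which 2 genes were called.

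Fxyd7, which encodes a regulator of the sodium pump known from brain, was nearly absent with vehicle, with 2 and 1 UMIs in the summed counts against 42 and 73 with PM. The ratio of CPM was 46.9 (95% counting interval 15.7 to 231), and the adjusted p was 0.000808 (edgeR). Apoe, the apolipoprotein of macrophages, was at 55.5 and 74.9 CPM with vehicle and at 395 and 196 CPM with PM (log2 fold change 2.25, SE 0.34, adjusted p = 0.0470, edgeR). Ptms (parathymosin) rose from 67.0 and 71.9 to 181 and 258 CPM, Mpzl3 from 119 and 129 to 359 and 321 CPM and Neil3, a DNA glycosylase, from 21.1 and 25.5 to 92.1 and 95.9 CPM. In each of these the groups did not overlap. By edgeR, Fxyd7 and Apoe passed with any 1 mouse left out, Ptms did not without vehicle mouse 2 (adjusted p = 0.0540) or PM mouse 2 (0.0970), Neil3 did not without PM mouse 2 (0.110) and Mpzl3 did not without vehicle mouse 1 (0.174) or vehicle mouse 2 (0.184). Over all 18 alternatives Fxyd7 passed in each, whereas Apoe fell short in 4, Ptms in 6 and Mpzl3 in 7, and Neil3 in 6 of the 17 in which it was tested. None of these 4 passed with stricter limits on cells, on Ptgs2 or on Il1b or with the replicate block.

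The 3 genes that fell encode surface receptors. Clec4n (Dectin-2, a C-type lectin for fungal mannans) was at 109 and 89.9 CPM with vehicle and at 19.7 and 16.5 CPM with PM (log2 fold change -2.35, SE 0.37, adjusted p = 0.0470, edgeR). Cd244a (the SLAM family receptor 2B4) was at 172 and 166 CPM and at 46.1 and 50.9 CPM (-1.66, SE 0.28, adjusted p = 0.0487, edgeR). Adgre5 (CD97, an adhesion receptor) was at 299 and 376 CPM and at 115 and 91.4 CPM (-1.60, SE 0.27, adjusted p = 0.0497, edgeR). The adjusted p of these genes, and of all rises but Fxyd7, Ccl9, Mpo and Gatm, lay between 0.0403 and 0.0497, close to the threshold. Without PM mouse 2 none of the 3 falls passed (adjusted p = 0.100, 0.0802 and 0.0970 for Clec4n, Cd244a and Adgre5, edgeR), and without vehicle mouse 2 Adgre5 did not (0.0595). Each of the 3 fell short in 7 of 18 alternatives, with no change of sign, and none of them passed with stricter limits on cells, on Ptgs2 or on Il1b or with the replicate block.

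**Figure D3:**
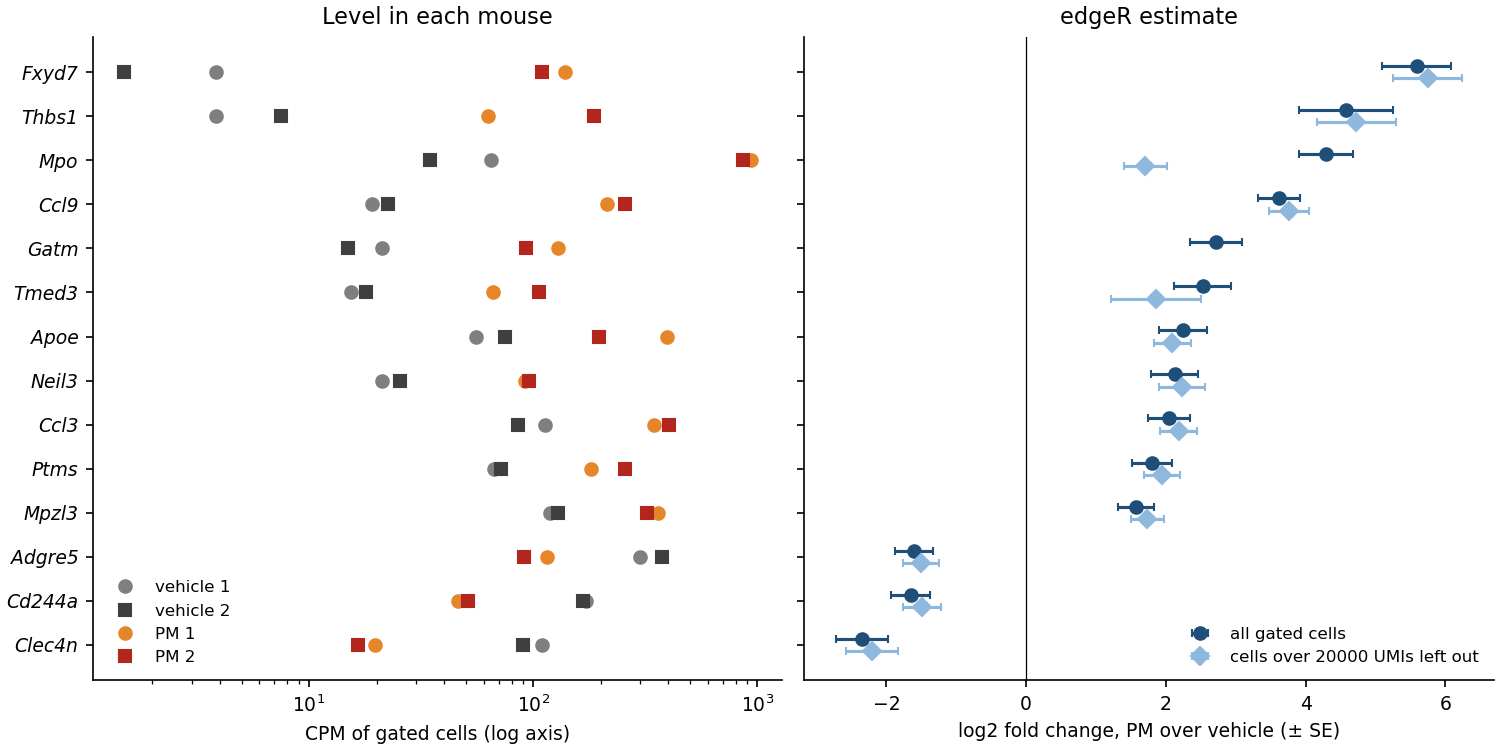
The 14 genes that passed the test of PM in gated cells, as CPM in each mouse (left, log axis) and as log2 fold change with its SE (right), with all gated cells and without cells over 20000 UMIs. Mpo falls from 4.29 to 1.71 without the large cells, Ccl9 (3.62 and 3.76) and Ccl3 (2.04 and 2.18) move by less than their SE, and Gatm is not tested without them.

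A few very large cells held much of the signal of some genes. Among the 818 cells 6 had more than 20000 UMIs, 1, 1, 2 and 2 in vehicle 1, vehicle 2, PM 1 and PM 2, and they held 8.86%, 4.31%, 18.0% and 7.93% of the summed UMIs. The scores for doublets called 4 of the 6 as doublets. Of Mpo (myeloperoxidase) UMIs, a single cell held 89.8% in PM mouse 1 and 56.0% in PM mouse 2, and of Gatm UMIs 74.4% and 48.4%. Mpo was at 65.1, 34.5, 934 and 858 CPM with all cells and at 48.3, 36.0, 108 and 127 CPM without those 6 cells. Its log2 fold change was 4.29 (SE 0.39, adjusted p = 0.000808, edgeR) with them and 1.71 (SE 0.31, adjusted p = 0.0290, edgeR) without. With called doublets left out, Mpo had a log2 fold change of 3.24 and did not pass (adjusted p = 0.358, edgeR). The 8 primary granule genes summed to 881, 133, 3448 and 2391 CPM with all cells (6 of 8 at an unadjusted p under 0.05, edgeR, beside 570 of all 5372 genes) and to 202, 139, 341 and 265 CPM without the large cells.

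**Figure D4:**
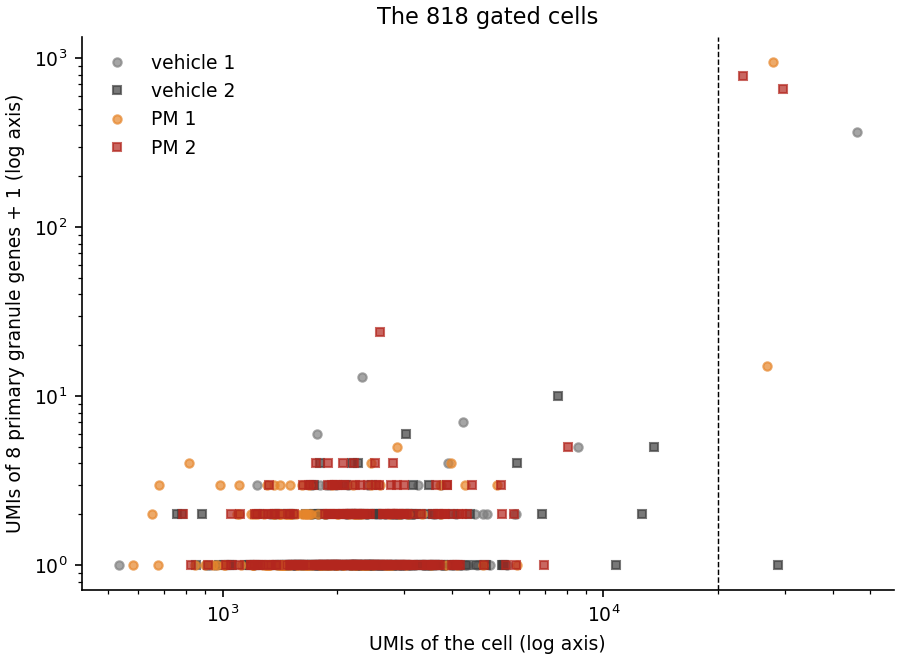
UMIs of each of the 818 gated cells (x axis, log scale) against its UMIs of the 8 primary granule genes plus 1 (y axis, log scale), by mouse, with a dashed line at 20000 UMIs. Most cells have few primary granule UMIs, and 4 cells with 100 or more (1 of vehicle mouse 1, 1 of PM mouse 1 and 2 of PM mouse 2) hold most of those counted in their mice.

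Without the 6 large cells, a choice made after their counts were seen, 44 of 4858 tested genes rose (0.906%) and 17 fell (0.350%), among them 9 of the 11 rises and all 3 falls found with all cells. Gatm was then too low to be tested and Tmed3, a cargo receptor of the secretory pathway, was not called (log2 fold change 1.86, adjusted p = 0.176, against 2.53 and 0.0483 with all cells, edgeR). Without PM mouse 2, Tmed3 did not pass either (adjusted p = 0.170, edgeR). Thbs1 (thrombospondin-1) remained called, but 94.7% of its 19 UMIs in PM mouse 1 were in a single cell, and it did not pass without PM mouse 2 (adjusted p = 0.0817, edgeR). Genes named in the next sentences were chosen after their values were seen. Lyz2, lysozyme of the myeloid lineage, was at 1306 and 1494 CPM with vehicle and at 4005 and 3636 CPM with PM (1.64, SE 0.21, adjusted p = 0.00341, edgeR). Ly6c2 was at 323 and 238 CPM with vehicle and at 722 and 825 CPM with PM, Ly6g rose by 1.55, Ngp by 1.32 and Camp by 1.21 on the log2 scale. None of these genes, Lyz2 included, was among the 11 rises with all cells, where the groups overlapped for Camp. In the secondary granule list 0 of 12 tested genes were called with all cells (edgeR). Without the large cells 3 of 11 rose, beside 0.906% of all genes.

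Free RNA of some of these genes differed between the libraries as well. Among cells that reached 1000 UMIs, thinned to that number, 46.8% and 50.4% of gated cells with vehicle and 83.6% and 82.0% with PM had a Lyz2 UMI, against 10.3%, 9.16%, 23.5% and 8.75% of B-like cells. A Ly6c2 UMI was in 14.6% and 11.9% of vehicle cells and in 36.9% and 44.4% of PM cells, against 8.55%, 4.58%, 20.5% and 17.0% of B-like cells. Mpo UMIs were in 7.02%, 3.57%, 13.1% and 12.4% of gated cells and in 4.27%, 2.68%, 12.4% and 7.99% of B-like cells. The part of free RNA in the rises of Lyz2, Mpo, Ly6c2, Camp and Ngp was not tested.

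Read by role, the chemokine and cytokine list split. Of its 14 tested members Ccl9 and Ccl3 rose and none fell with all cells, and 9 had an unadjusted p under 0.05 (edgeR), beside 570 of all 5372 genes tested. Without the large cells 3 also fell, namely Csf1, Ccl2 and Ccl5, beside 0.350% of all genes. Csf1, the macrophage growth factor, was at 145 and 143 CPM with vehicle and at 44.1 and 42.3 CPM with PM (log2 fold change -1.54, SE 0.29, adjusted p = 0.0292, edgeR). With all cells its log2 fold change was -1.69 and its adjusted p 0.0557. The 2 marker genes outside the gate did not pass. Cxcl2 had a log2 fold change of -0.87 (SE 0.35, adjusted p = 0.434, edgeR) and Ccrl2 of -1.14 (SE 0.30, adjusted p = 0.190, edgeR), although both vehicle mice were above both PM mice in each. Tnf had -2.04 (SE 0.49, adjusted p = 0.176, edgeR), from 19 and 44 UMIs with vehicle and 3 and 8 with PM.

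No member of the NF-kB and feedback list was called (0 of 20 by edgeR, 4 at an unadjusted p under 0.05, as were 570 of all 5372 genes tested, median log2 fold change -0.47, beside 0.01 over all genes tested). Nfkbia, the inhibitor that NF-kB induces, was at 1271 and 1108 CPM with vehicle and at 444 and 682 CPM with PM (adjusted p = 0.327, edgeR). No member was called among 14 IL-1 and inflammasome genes, 8 prostaglandin and leukotriene genes or 28 immediate early and handling stress genes, with medians of 0.02, 0.22 and -0.07. At an unadjusted p below 0.05 these lists had 2, 1 and 5 genes (edgeR), beside the same 570 of 5372. Il1rn, the natural IL-1 receptor antagonist, was at 253, 283, 253 and 280 CPM. Alox5ap, the partner of 5-lipoxygenase, was at 1681, 1386, 1033 and 1081 CPM. Il1r2, the decoy IL-1 receptor, was at 601 and 364 CPM with vehicle and at 184 and 195 CPM with PM (log2 fold change -1.24, SE 0.34, adjusted p = 0.215, edgeR).

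In the list of 38 surface receptors, which holds neither Cd244a nor Adgre5, Clec4n was the 1 that fell (0.0558% of all genes did), and 7 had an unadjusted p under 0.05 (edgeR), beside 570 of 5372. None of 25 late maturation genes passed with all cells (6 at an unadjusted p under 0.05, edgeR, beside 570 of 5372). S100a8 was at 79722, 54782, 63811 and 83635 CPM and Retnlg at 12569, 10264, 15175 and 19662 CPM. G0s2, an inhibitor of lipolysis in that list, fell without the large cells (212, 243, 44.1 and 91.1 CPM), 1 of 25 tested, beside 0.350% of all genes. Among survival genes, 0 of 21 were called with all cells by edgeR (4 at an unadjusted p under 0.05, beside 570 of 5372). Mcl1, the survival factor of neutrophils, was at 2812, 2779, 2129 and 2936 CPM, whereas Pmaip1, which counters it, was at 193 and 307 CPM with vehicle and at 96.3 and 70.0 CPM with PM without the large cells, and fell (-1.44, SE 0.29, adjusted p = 0.0383, edgeR). Pmaip1 was the 1 of 19 tested survival genes that fell there, beside 0.350% of all genes. The 15 genes of the adhesion list, without Adgre5, had no call with all cells (2 at an unadjusted p under 0.05, edgeR, beside 570 of 5372). Without the large cells Itgax fell, 1 of 14 tested, beside 0.350% of all genes. No call was made among 11 respiratory burst, 24 glycolysis and hypoxia, 14 class I antigen presentation, 5 histone deacetylase or 18 transcription factor genes by edgeR. They had 1, 3, 1, 0 and 1 genes at an unadjusted p under 0.05, and with so few calls among all 5372 genes an empty list is no result about its members. Hdac4 was at 186, 226, 145 and 153 CPM and Hdac1 at 40.2, 31.5, 29.6 and 28.5 CPM.

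The interferon list was cut by the gate, which removed cells with more than 1 UMI of Ifit1 and Ifit3. Of its 43 tested members 0 were called with all cells by edgeR (9 at an unadjusted p under 0.05, beside 570 of 5372, median 0.24) and 3 rose without the large cells, beside 0.906% of all genes, namely Rsad2 (viperin), Ddx60 and Ifi27l2a. Rsad2 was at 186 and 103 CPM with vehicle and at 355 and 368 CPM with PM with all cells, and at 204, 108, 433 and 400 CPM without the large cells (1.61, SE 0.30, adjusted p = 0.0295, edgeR). Gbp2, a guanylate-binding protein that interferon-γ induces, went the other way at 440, 112, 49.4 and 31.5 CPM (adjusted p = 0.314, edgeR). Of the markers of other cells, 1 of 4 tested monocyte genes, Ly6c2, rose without the large cells, beside 0.906% of all genes. None of the other markers was called. Vcam1, a macrophage marker, was at 5.74, 7.49, 29.6 and 74.9 CPM beside the rise of Apoe, and without the large cells the 8 macrophage markers summed to 42.0, 58.0, 64.2 and 69.9 CPM. Without the large cells the log2 fold change of Apoe was 2.09 (SE 0.27, adjusted p = 0.00341, edgeR). The part of other cells in the rise of Apoe was not tested.

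The same genes were followed in the comparator of the same mice, which also holds cells with monocyte, precursor and cycling genes (9 monocyte markers summed to 2909 to 3588 CPM and 8 primary granule genes to 5322 to 8480 CPM). The part of these cells in its values was not tested. In Ptgs2-negative cells 20 of 14346 genes rose (0.139%) and 2 fell (0.0139%, edgeR). Fxyd7 (0.0307 and 0.134 CPM with vehicle, 8.13 and 7.70 CPM with PM), Ptms (log2 fold change 1.35, adjusted p = 0.0332), Mpzl3 (1.13, adjusted p = 0.0332) and Rsad2 (1.66, adjusted p = 0.0332) were among the rises by edgeR. Per1, of the circadian clock, fell (-1.18, adjusted p = 0.0488, edgeR). None of these calls in Ptgs2-negative cells held without PM mouse 1, when 0 genes rose and 0 fell (837 higher and 726 lower at an unadjusted p under 0.05, edgeR). Ccl9 did not follow in these cells, with 108 and 99.3 CPM with vehicle and 105 and 75.9 CPM with PM. In Il1b-positive Ptgs2-negative cells, however, Ccl9 was at 20.6 and 21 CPM with vehicle and at 200 and 161 CPM with PM, and Fxyd7 at 0 and 0.656 CPM and at 118 and 119 CPM. There Ccl3 was at 34.1 and 73.5 CPM with vehicle and at 162 and 310 CPM with PM, and Apoe at 45.7 and 59.7 CPM and at 288 and 229 CPM. The higher levels of these 4 genes with PM thus also appeared in cells with Il1b that passed the other limits but had no Ptgs2 UMI, in which they were not tested.

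Whether the effect of PM differed between gated and Ptgs2-negative cells was tested by the interaction of population and treatment, with the mouse as a block. Of 13347 genes, 27 had a higher change in gated cells (0.202%) and 8 a lower one (0.0599%, edgeR). Among them were Ccl9 (difference of log2 fold changes 3.89, SE 0.36, adjusted p = 9.593e-23, edgeR), Ccl3 (1.83, SE 0.30, adjusted p = 1.904e-06), Apoe (1.69, SE 0.31, adjusted p = 5.529e-05) and Lyz2 (1.34, SE 0.34, adjusted p = 0.0341). For Fxyd7 (-0.81, adjusted p = 0.982), Ptms (0.36, adjusted p = 0.973), Mpzl3 (0.34, adjusted p = 0.973), Cxcl2 (0.41, adjusted p = 0.973) and Ccrl2 (-0.39, adjusted p = 0.973) the difference did not pass by edgeR. Gbp2 (-2.01, SE 0.36, adjusted p = 3.634e-05, edgeR), H2-Q6 and Ifi47 had a lower change in gated cells, and in each vehicle mouse 1 was the highest of the 4 mice. Without that mouse, Gbp2 (-1.98, adjusted p = 0.192, edgeR) and Ifi47 (-1.34, adjusted p = 1, edgeR) did not pass.

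**Figure D5:**
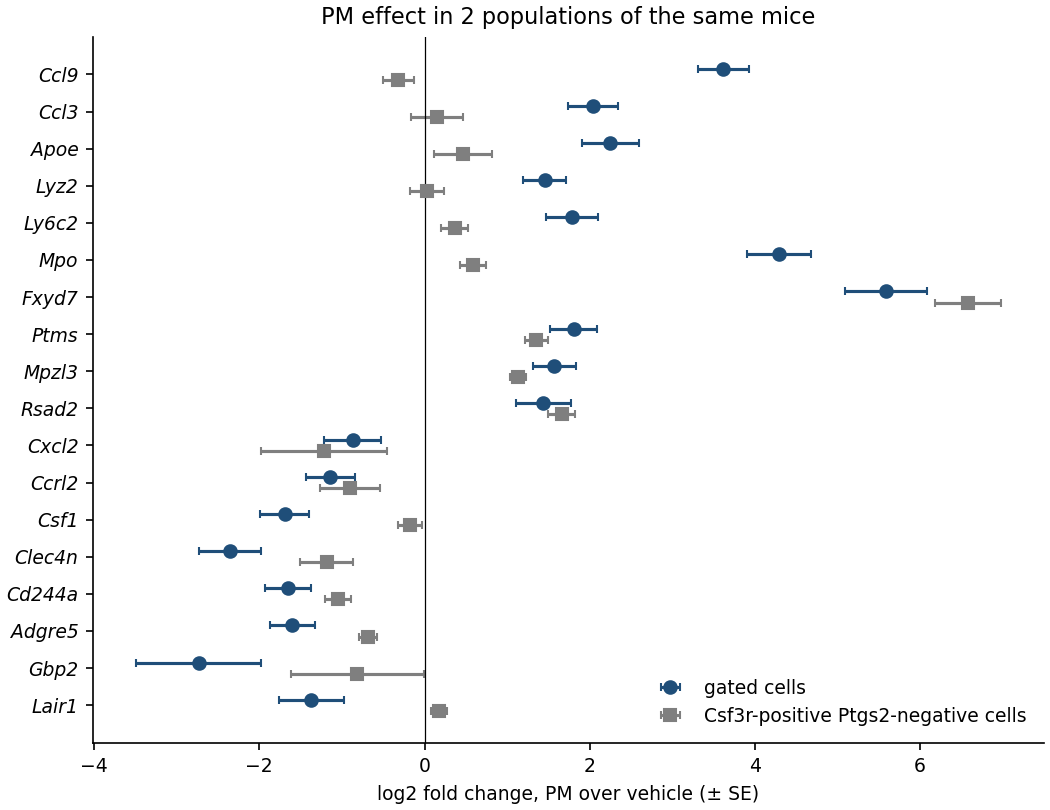
Log2 fold change of PM over vehicle with its SE for 18 genes in gated cells and in Ptgs2-negative Csf3r-positive cells, for genes chosen after their values were seen. Ccl9 stands at 3.62 in gated and -0.32 in Ptgs2-negative cells, whereas Ptms (1.80 and 1.35) and Mpzl3 (1.57 and 1.13) lie close together.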

How the data were processed

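Per the labels, cells were captured with a 10x Chromium 3′ kit, and the authors deposited raw UMI counts per gene and barcode (Cell Ranger 6.0.1 per the file headers; the labels' processing notes also name STAR). The study's methods name build GRCm38 and the labels' notes GRCm39; 99.6% of 32285 gene identifiers matched the GRCm38 annotation used here. Members, gene lists and tests were chosen with earlier results of these data known. Counts were summed per mouse and population (303915 to 667642 UMIs for gated cells) and tested by the quasi-likelihood test of edgeR 4.0.16 after filterByExpr and TMM scaling (robust fit, Benjamini-Hochberg over all genes tested, adjusted p under 0.05 and absolute log2 fold change over 0.5, as in the study's thresholds). Genes of the gate got no call. The scripts were tested on simulated data. P-values cover only the spread between these 2 mice a group. Genes named were those of the gate and the markers, up to 10 largest rises and falls among called genes at or above 20 CPM, the called or most abundant genes of each list, and the 12 highest and 8 lowest ratios at or above 100 CPM; all others, such as Il1rn, Il1r2, Tnf, Per1, Retnlg, Pmaip1 and Mpzl3, were chosen after their values were seen. Scrublet's automatic threshold failed in 2 libraries (0.0108% and 0% called), so the top 0.8% of cells per 1000 cells were called doublets; they were kept in the results above and left out in an alternative. Alternatives used DESeq2 1.42.0, other normalization, filters, gates, thinning and left-out mice.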

Additional observations from a re-analysis of the deposited data

Results flagged for a closer look

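The effect of PM differed between gated and Ptgs2-negative cells for 35 genes by the interaction test (edgeR, adjusted p under 0.05), and the genes named for it are given here as differences of log2 fold changes. Ccl9 (3.89), Mpo (3.64) and Thbs1 (3.42) had a higher change in gated cells. Ccl9 was also at higher levels with PM in Il1b-positive Ptgs2-negative cells, where it was not tested. Mpo in the PM mice lay mostly in 1 cell of each, as given above. Dmkn (4.53, 0 and 1 UMIs with vehicle and 8 and 12 with PM in gated cells, a ratio of CPM of 24.5 with a 95% counting interval of 3.92 to 1015) and Pf4 (4.58, 1 and 1 UMIs with vehicle and 0 and 7 with PM, a ratio of 4.29 with an interval of 0.816 to 42.3) rest on few counts in few cells. A single cell held all 8 Dmkn UMIs of PM mouse 1 and 75% of the 12 of PM mouse 2, and a single cell all 7 Pf4 UMIs of PM mouse 2, whereas the intervals take UMIs as independent. Pf4, a platelet gene, was at 16.0, 274, 36.8 and 29.4 CPM in Ptgs2-negative cells, where vehicle mouse 2 stood apart. H2-Q6 (-2.59), Ifi47 (-2.34), Gbp2 (-2.01), Lair1 (-1.66) and Basp1 (-1.22) had a lower change in gated cells. H2-Q6 shares reads with near-identical class I genes and is uncertain. By edgeR, Mpo did not pass without called doublets (adjusted p = 0.863). Over its alternatives the difference ranged from 0.75 to 4.27 for Mpo, which fell short in 5 of 17, from 0.34 to 12.8 for Dmkn, in 8 of 16, and from -1.36 to -0.47 for Basp1, in 7 of 17. It was lowest for Mpo with cells thinned to 2000 UMIs (0.75) and for Dmkn without cells over 10000 UMIs (0.34). For Thbs1 it ranged from 2.78 to 8.81 and fell short in 1 of 17, and for Lair1 from -3.34 to -1.24, in 6. For Ifi47 it ranged from -9.97 to -1.34, short in 4 of 17, and for H2-Q6 from -4.30 to -2.12, in 2. Pf4 ranged from -6.61 to 8.555, fell short in 4 of 17 and changed sign in 2. Dmkn did not pass without vehicle mouse 1 (0.644), vehicle mouse 2 (0.109) or PM mouse 2 (0.0786), Lair1 without vehicle mouse 2 (1) or PM mouse 2 (0.399), and Basp1 without vehicle mouse 1 (0.801) or vehicle mouse 2 (0.442). Ifi47 did not pass without vehicle mouse 1 (1) or PM mouse 2 (0.238), and Gbp2 without vehicle mouse 1 (0.192). Pf4 did not pass without vehicle mouse 2 (1.00 on the log2 scale, adjusted p = 1) and turned to -6.61 without PM mouse 2.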

How the results depend on the processing

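With 2 mice a group, counts of called genes moved with nearly every setting, and the cause was not tested. In gated cells the 14 calls became 104 without a filter on low counts, 4 with cells of 500 or more genes and at most 10% mitochondrial UMIs, 154 without called doublets, 3 with at least 2 Ptgs2 UMIs, 2 with at least 10 Il1b UMIs, 118 and 110 with cells thinned to 2000 and 1000 UMIs, and 61 and 72 without cells over 20000 and 10000 UMIs. They became 63, 63, 65 and 15 without vehicle 1, vehicle 2, PM 1 and PM 2, in fits where the lone mouse is assumed to vary like the other group. DESeq2 called 15, another normalization (RLE) 11 and the gate without its Ifit limit 17. In Ptgs2-negative cells 22 became 446 by DESeq2, 114 without called doublets, and 102, 603, 0 (1563 at an unadjusted p under 0.05, edgeR) and 57 without vehicle 1, vehicle 2, PM 1 and PM 2. In all Csf3r-positive cells 18 rises and 2 falls became 295 and 191 by DESeq2, 92 and 35 without called doublets, 36 and 22 without vehicle 1, 302 and 153 without vehicle 2, 0 and 0 without PM 1 (863 higher and 829 lower at an unadjusted p under 0.05, edgeR) and 16 and 14 without PM 2. The 35 differences between populations became 18 by DESeq2, 17 with at least 10 Il1b UMIs, 243 without called doublets, 241 and 261 without cells over 20000 and 10000 UMIs, and 23, 11, 135 and 72 without vehicle 1, vehicle 2, PM 1 and PM 2. With cells thinned to 2000 UMIs after gating, 306 genes rather than 642 were at least 2-fold apart from the comparator in all 4 mice. Ccl9 and Fxyd7 were called in gated cells under all 18 alternatives, and no gene named for its change there changed sign. The remaining 14 named genes passed in some alternatives and not in others.

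Over genes, deviations from the group means did not run in parallel between mice of the same replicate number. Their correlation was -0.26 in gated, -0.12 in Ptgs2-negative and -0.13 in Csf3r-positive cells. A caption of the paper speaks of 2 independent experiments, but the labels do not say which mice shared one. With 2 mice a group, a correlation cannot settle whether the mice were paired. The fit with a replicate block called 6 and 343 genes in the first 2 populations, and 87 rises and 37 falls in the third. The crossed pairing, chosen after seeing the data, called 107 and 629, and 321 rises and 145 falls.

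Leaving out 1 mouse moved the difference in share (PM minus vehicle, in percentage points) from -0.734 to between -1.61 and 0.137 for kept cells and from -0.927 to between -2.34 and 0.491 for Csf3r-positive cells. It was above 0 without PM mouse 1 (0.137 and 0.386) and, for the latter, without vehicle mouse 2 (0.491). With at least 10 Il1b UMIs the difference was -1.02 for kept cells and -1.46 for Csf3r-positive cells. With cells thinned to 2000 UMIs it was -0.664 and -1.47, and with cells thinned to 1000 UMIs -0.597 and -1.70. The difference for Pf4 ranged from -6.61 (without PM mouse 2) to 5.55 with 1 mouse left out and was -5.19 with cells thinned to 1000 UMIs. The log2 fold change of Il1b in Csf3r-positive cells ranged from -1.30 to -0.16, all below 0, with 1 mouse left out. That of Ptgs2 ranged from -0.93 to 0.49 with 1 mouse left out, above 0 without vehicle mouse 2 (0.29) and without PM mouse 1 (0.49). The alternatives with 1000 UMIs or with limits on large cells were chosen after seeing the data. Summed counts of gated cells (303915 to 667642 UMIs) left 5372 genes to test, against 14346 in Ptgs2-negative cells.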
